A study of Homo sapiens with 6 samples.

Results

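Close pairs of poly(A) sites are described here, that is, units with exactly 2 sites whose peaks lay at least 26 and under 200 nt apart on the same strand. A site is a cluster of read 3′ ends, and a unit is a group of neighbouring sites, not an annotated transcript. Whether ends arose at a poly(A) signal or by priming within a transcript was not checked. Of 28114 units, 1123 were close pairs (3.99%), and they made up 24.2% of the 4645 units with exactly 2 sites. The members were chosen from the read counts themselves. Read 3′ ends of 6 libraries were scaled to each library's total (CPM) and pooled at equal weight. The highest position took all ends within 25 nt on its strand, and this was repeated on the ends left over. Sites with a mean of at least 1 CPM outside the mitochondrial genome were kept, and neighbouring sites on a strand up to 5000 nt apart were joined into units. Spacing and level therefore describe the members and support nothing by themselves. All positions are in hg19 (GRCh37). No gene annotation of that build was used here, so loci are given by chromosome, strand and position, and no gene names or sequences are printed.

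Polyadenylated RNA 3′ ends were sequenced by A-seq, a method that selects poly(A) RNA, fragments it and starts reverse transcription where the transcript meets its tail. The cells were HEK293, a line derived from human embryonic kidney. RNase I was used to fragment the RNA of cells given CF Im68 siRNA and of their scrambled siRNA control. Alkaline hydrolysis was used for CF Im25 siRNA, CF Im59 siRNA, untransfected cells with no siRNA, and a scrambled siRNA control. siRNA-treated cells were harvested after 3 days, and each of the 6 conditions had 1 library. No replicate error could be had, so no p-value is given. Intervals are 95% intervals. Those of a single unit cover counting error only, and PCR copies were not told apart from separate molecules. Those of a percentage of units treat loci as independent draws and are a description over loci. Neither kind covers differences between libraries of the same condition.

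Poly(A) site choice sets where a transcript ends. A nascent RNA is cleaved downstream of a poly(A) signal and a tail is added to the new end; where a last exon holds sites in tandem, use of the upstream (proximal) site gives the shorter 3′ UTR and use of the downstream (distal) site the longer one. Cleavage factor Im (CF Im) is part of the processing machinery: its CF Im25 subunit binds UGUA elements and pairs with CF Im59 or CF Im68, and its loss is known for moving use towards proximal sites in many tandem transcripts. Cleavage directed by a single poly(A) signal is also known to scatter over neighbouring nucleotides, so ends a short way apart can come from a single signal or from separate ones. Positions alone do not tell these apart.

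Library depth ranged from 5351980 reads (scrambled siRNA, RNase I) to 18183644 reads (no siRNA), with 84.3% to 91.2% of reads at kept sites. Close pairs held 9.17% of the reads at kept sites in the CF Im68 library and 9.24% in its RNase I control, against 8.15%, 8.27%, 8.56% and 8.0% in the CF Im25, CF Im59, no siRNA and scrambled siRNA libraries made by alkaline hydrolysis. The median close pair had 82.0 reads over both sites in the scrambled RNase I library and 260 reads in the no siRNA library. Every close pair had at least 1 read in each library. The level of each siRNA's own target was not checked, since no annotation of the build was used. The method of fragmentation goes with the library pair, so it cannot be told apart from any other difference between the 2 RNase I libraries and the 4 alkaline ones.

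Very short spacings were the commonest. Quartiles of the spacing were 37.0, 68 and 127 nt, and 417 close pairs (37.1%) had peaks 26 to under 50 nt apart. Another 320 (28.5%) lay 50 to under 100 nt apart, 181 (16.1%) lay 100 to under 150 nt apart, and 205 (18.3%) lay 150 to under 200 nt apart. At the lower edge of the rule, 154 close pairs had peaks 26 to 29 nt apart. At the upper edge the numbers were 33 at 190 to under 200 nt just inside and 24 at 200 to under 210 nt just outside. The windows of both sites overlapped in 426 close pairs (spacing of 26 to 50 nt). There the peak with the higher pooled count claimed every end within 25 nt of it, including ends also within 25 nt of the other peak. The members were spread over 553 plus-strand and 570 minus-strand units, on 23 chromosomes and 1 unplaced contig, from 14 on chromosome 21 to 99 on chromosome 1.

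**Figure D1:**
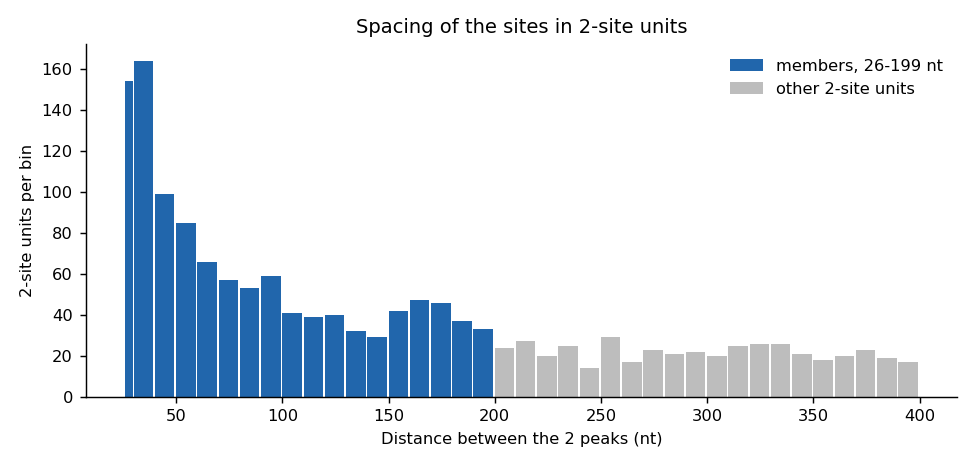
Number of 2-site units (vertical axis) by the distance between the peaks in nt (horizontal axis, bins of 10 nt after a first bin of 26 to 29 nt). Blue bars are the close pairs and grey bars the 2-site units just outside the rule; the bar at 26 to 29 nt holds 154 units and the one at 200 to under 210 nt holds 24.

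Close pairs were strongly read units with a weak partner site. Their median level was 16.2 mean CPM over both sites (quartiles 6.49 and 44.3), against 9.85 mean CPM in 2-site units spaced 200 to under 1000 nt, 8.27 in those spaced 1000 to 5000 nt and 2.21 in units with a single site. The weaker site held a median of 22.2% of a close pair's reads, against 28.6% and 29.9% in the wider classes. In 184 close pairs (16.4%) it held under 5%, against 8.28% and 7.31% of the wider units. The distal site was the stronger in 721 close pairs (64.2%), against 57.3% at 200 to under 1000 nt and 52.6% at 1000 to 5000 nt. The 205 close pairs 150 to under 200 nt apart lay near the wider classes. Their median level was 8.54 mean CPM, their weaker site held a median of 29.9%, and the distal site was the stronger in 56.6%. The floor of 1 CPM bears on these shares: 529 close pairs had a weaker site at 1 to under 2 mean CPM, and 107 of them at 1 to under 1.1 mean CPM. A strong unit can pass that floor with a tiny share at its weaker site.

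The most abundant members show this directly. The unit with sites at 79800429 and 79800455 on chromosome 10 (plus strand, 26 nt apart) had the highest level, 12268 mean CPM. Its proximal site held 78 of 94171 reads in the CF Im68 library and 28 of 37712 in the scrambled RNase I library. The alkaline counts were 3 of 144044 after CF Im25 siRNA, 4 of 173336 after CF Im59 siRNA, 2 of 325703 with no siRNA and 8 of 137410 with scrambled siRNA. Its proximal share was thus 0.0828% and 0.0742% in the RNase I libraries and at most 0.00582% in the alkaline ones. On chromosome 1 (plus strand, 93307430 and 93307477, 47 nt apart, 5255 mean CPM) the order was the other way round: 0.00874% and 0.0127% in the RNase I libraries, against 0.0642% to 0.161% in the alkaline libraries. The units at 91509308 and 91509275 on chromosome 15 (minus strand, 1784 mean CPM) and at 100890417 and 100890385 on chromosome 8 (minus strand, 1682 mean CPM) likewise had a proximal share under 0.6% in every library. Each of these 4 units was, by its reads, nearly a single-site unit.

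Members at the lower edge of the spacing were not all of that kind. A unit on chromosome 1 (minus strand, 1309117 and 1309091, 26 nt apart, 686 mean CPM) used its proximal site almost throughout, at 97.5% in the CF Im68 library, 96.2% in its control, and 95.3%, 92.3%, 93.1% and 93.6% in the CF Im25, CF Im59, no siRNA and scrambled alkaline libraries. Another at the same spacing (chromosome 1, plus strand, 228336626 and 228336652, 557 mean CPM) had a proximal share of 3.75% and 3.51% in the CF Im68 and scrambled RNase I libraries, and 0.363% to 0.673% in the 4 alkaline libraries. Just outside the upper edge, the most abundant unit (chromosome 14, plus strand, 99977651 and 99977852) had proximal shares of 5.53%, 3.15%, 4.84%, 1.85%, 1.07% and 1.53% in the CF Im68, scrambled RNase I, CF Im25, CF Im59, no siRNA and scrambled alkaline libraries.

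Few close pairs stood near other kept ends on the opposite strand. A kept site lay within 1000 nt on the other strand in 131 (11.7%), against 10.9% and 11.3% of the wider 2-site classes. Weaker ends of 0.1 to under 1 mean CPM lay within 1000 nt on the same strand in 761 (67.8%), against 76.8% and 77.9%, and between the peaks in 185. With a floor of 0.1 CPM in place of 1 CPM, most close pairs would therefore not be units of exactly 2 sites.

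Use of the proximal site differed most between the RNase I and the alkaline libraries. Over the 606 close pairs with at least 50 reads in all 6 libraries, the median proximal share was 25.6% in the CF Im68 library and 21.8% in its scrambled control. It was 14.8% after CF Im25 siRNA, 10.9% after CF Im59 siRNA, 11.6% with no siRNA and 12.8% with scrambled siRNA among the alkaline libraries. Values over all units with 2 or more sites include the close pairs and rest on the 2 sites of highest mean CPM in each unit. Both RNase I libraries lay above all 4 alkaline libraries in 308 of the 606 (50.8%), against 36.5% of all units with 2 or more sites. They lay below all 4 in 148 (24.4%), the same percentage as over all units (24.4%).

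The difference in medians was widest at the closest sites. At 26 to under 50 nt (245 close pairs) the median proximal share was 21.1% and 20.3% in the CF Im68 and scrambled RNase I libraries. It was 5.79%, 5.56%, 5.46% and 6.91% in the CF Im25, CF Im59, no siRNA and scrambled alkaline libraries. Both RNase I libraries lay above all alkaline ones in 156 of these (63.7%) and below in 41 (16.7%). At 150 to under 200 nt (78 close pairs) the medians were 29.4% and 23.9% in the CF Im68 and scrambled RNase I libraries, and 28.9%, 22.7%, 19.6% and 19.2% in the CF Im25, CF Im59, no siRNA and scrambled alkaline libraries. There the RNase I libraries lay above all others in 29 (37.2%) and below in 24 (30.8%).

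**Figure D2:**
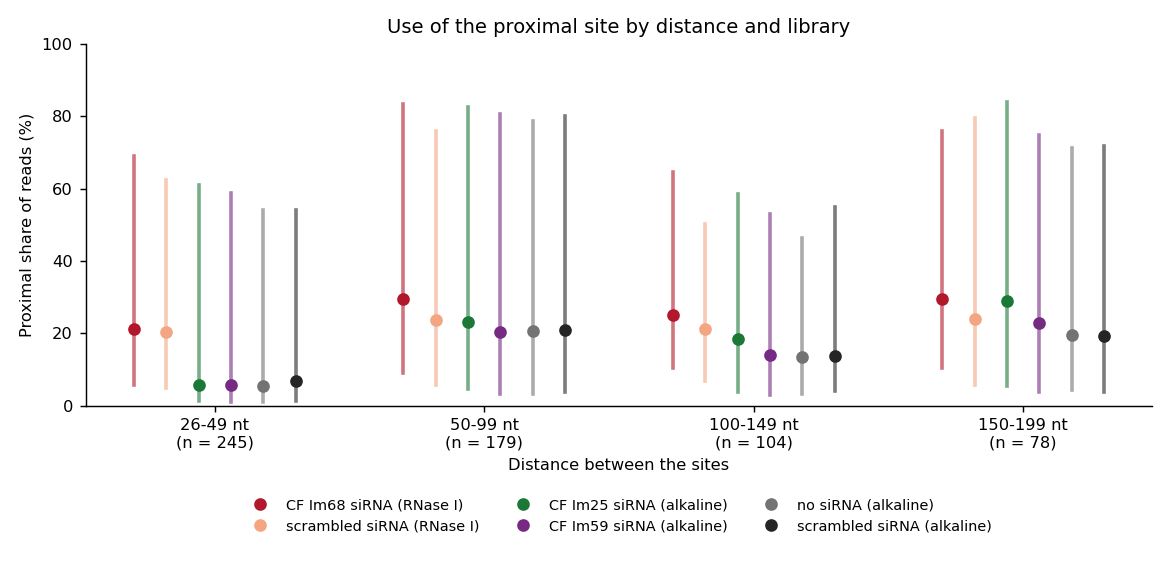
Median proximal share of reads in % (points) with quartiles over loci (bars) in each of 6 libraries, by distance between the sites, for the 606 close pairs with at least 50 reads in every library. At 26 to under 50 nt the RNase I libraries (red, orange) stand at 21.1% and 20.3% and the alkaline libraries between 5.46% and 6.91%; at 150 to under 200 nt the 6 medians lie between 19.2% and 29.4%.

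The spread of read ends around a peak also differed between the methods. Each library was averaged over its own set of loci. These were 2867 (scrambled RNase I) to 7533 (no siRNA) single-site units. Close pairs 26 to under 50 nt apart with a stronger distal site numbered 204 to 258 in the same libraries. In units with a single site, 7.21% and 7.54% of the ends lay 11 to 25 nt upstream of the peak in the CF Im68 and scrambled RNase I libraries, against 2.44% to 2.71% in the 4 alkaline libraries. The peak nucleotide itself held 51.9% and 54.4% of the ends in the RNase I libraries, against 66.2% to 69.0% in the alkaline ones. In close pairs 26 to under 50 nt apart with a stronger distal site, 23.2% and 18.5% of the ends lay 26 nt to under 50 nt upstream of that site in the CF Im68 and scrambled RNase I libraries. The alkaline values were 10.5%, 9.81%, 11.3% and 10.7% after CF Im25 siRNA, after CF Im59 siRNA, with no siRNA and with scrambled siRNA. That window holds the proximal site by the choice of members, so these values restate its share; in units with a single site the same window held 0.821% and 0.583% in the CF Im68 and scrambled RNase I libraries, against 0.220% to 0.310% in the alkaline ones. At 11 to 25 nt upstream the same close pairs had 12.1% and 12.2% in the RNase I libraries, against 6.28% to 7.13% in the alkaline ones. Whether upstream spread has a part in the higher proximal shares was not tested.

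**Figure D3:**
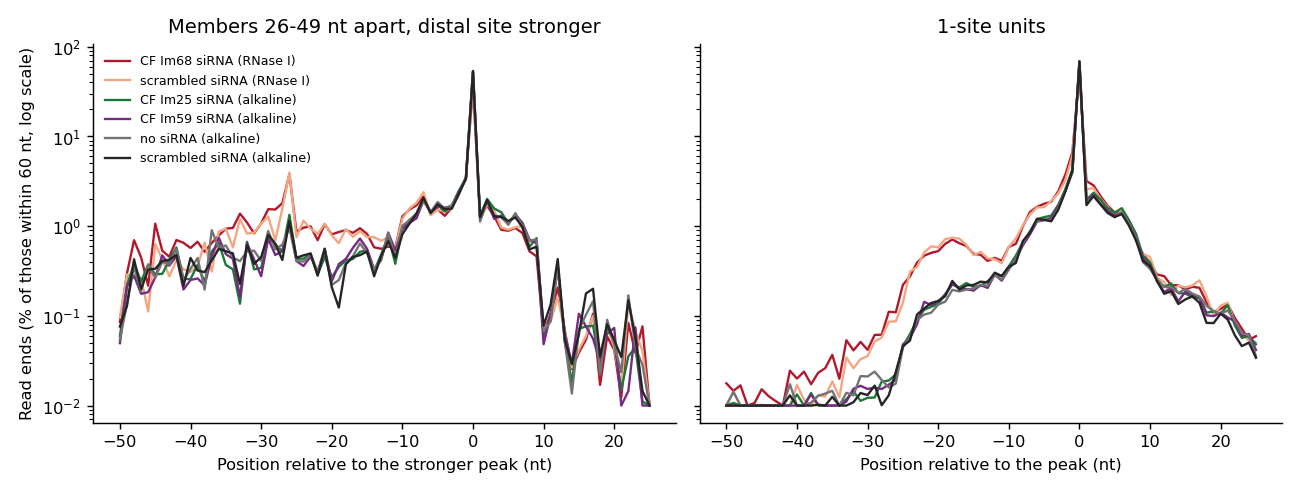
Read ends in % of those within 60 nt (vertical axis, log scale, values under 0.01% drawn at 0.01%) by position in nt relative to the stronger peak, averaged over loci that differ in number between the libraries, for close pairs 26 to under 50 nt apart with a stronger distal site (left) and for units with a single site (right). Upstream of the peak the RNase I curves (red, orange) run above the alkaline curves in both panels; at 11 to 25 nt upstream of single sites they sum to 7.21% and 7.54%, against 2.44% to 2.71% in the alkaline libraries.

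The scrambled siRNA libraries set RNase I against alkaline hydrolysis without a CF Im siRNA. Any other difference between these 2 libraries goes with the method. A shift was called where the proximal share differed by at least 20 percentage points, each library had at least 50 reads in the unit and 0 lay outside the Newcombe interval of the change. Of 635 close pairs tested in RNase I against alkaline libraries, 108 (17%) were called towards the proximal site, against 21.2% of all units with 2 or more sites. Towards the distal site 74 (11.7%) were called, against 17.9% of all units. At 26 to under 50 nt the counts were 51 proximal and 17 distal of 253, with a median change of 4.48 points. At 50 to under 100 nt they were 25 and 32 of 187, with a median of 0.557 points. When only ends within 5 nt of each peak were counted, the 26 to under 50 nt class again gave 51 proximal and 17 distal calls, now of 213, and a median of 5.07 points.

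Single loci showed how far apart the libraries of the 2 methods could lie. A unit on chromosome 6 (minus strand, 31236617 and 31236530, 87 nt apart, 342 mean CPM) had a proximal share of 5.65% in the CF Im68 library and 5.53% in its control. The alkaline libraries had 38.8% after CF Im25 siRNA, 37.5% after CF Im59 siRNA, 40.1% with no siRNA and 39.1% with scrambled siRNA. Within each method the libraries nearly coincided: the change was -0.303 points after CF Im25 siRNA (interval -3.11 to 2.49) and -1.55 points after CF Im59 siRNA (-4.32 to 1.21), each from more than 1000 reads per library. It was the member with the smallest change after either siRNA among deeply read members with a control share of 30% to 70%. On chromosome 20 (plus strand, 18744505 and 18744539, 34 nt apart) the order was the reverse. The proximal share there was 24.1% and 49.2% in the CF Im68 and scrambled RNase I libraries, against 1.23%, 1.85%, 1.15% and 1.38% in the CF Im25, CF Im59, no siRNA and scrambled alkaline libraries.

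CF Im25 siRNA shifted few close pairs. Of 810 tested against the scrambled alkaline library, 31 were called towards the proximal site (3.83%, Clopper-Pearson interval over loci 2.61% to 5.39%), against 16.1% of all units with 2 or more sites. Towards the distal site 11 were called (1.36%, 0.680% to 2.42%), against 2.49% of all units. The median change was 0.345 points over close pairs and 2.82 points over all such units. A change of at most 5 points was seen in 498 close pairs (61.5%), against 41.5% of all such units. Changes in close pairs ran from -35.7 to 44.5 points. In the wider 2-site classes 13.0% (200 to under 1000 nt) and 14.1% (1000 to 5000 nt) were called towards the proximal site. With 1 library per condition no test of the difference between spacing classes was made, and loci are not replicates of a knockdown.

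The same library set against untransfected cells gave 41 proximal calls of 872 (4.70%), against 17.9% of all units, 12 distal calls, against 1.77% of all units, and a median of 0.923 points. All 31 close pairs called against scrambled siRNA lay above the no siRNA library too, and 19 of them passed the rule against both controls. Of the 11 distal calls, 6 passed it against both. Both counts use the same CF Im25 library. Calls against both controls were not counted over all units with 2 or more sites, so they do not show whether close pairs differ from other units. Among 793 close pairs with at least 50 reads in each alkaline library, the share was highest of the 4 after CF Im25 siRNA in 316 (39.8%), against 53.8% of all units. It was highest after CF Im59 siRNA in 125 (15.8%, all units 10.8%), with no siRNA in 114 (14.4%, all units 11.4%) and with scrambled siRNA in 236 (29.8%, all units 23.8%). The order turned at the closest sites: at 26 to under 50 nt the CF Im25 library was highest in 81 of 309 (26.2%) and the scrambled library in 122 (39.5%), while at the wider spacings the CF Im25 library was highest in 45.6% to 52.3%.

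The largest change after CF Im25 siRNA was at a unit on chromosome 18 (minus strand, 12329116 and 12328958, 158 nt apart). Its proximal site held 570 of 814 reads after CF Im25 siRNA (70.02%), against 143 of 560 with scrambled siRNA (25.5%), a difference of 44.5 points (interval 39.5 to 49.1). The shares with CF Im59 siRNA (25.6%) and with no siRNA (27.5%) lay beside the scrambled control. In the RNase I libraries it had 76.2% after CF Im68 siRNA, against 39.1% in the control, a difference of 37.2 points (32.6 to 41.6). The share was thus higher in the CF Im25 and CF Im68 libraries than in their controls, and the CF Im59 library lay within 0.0457 points of the scrambled control. The unit was the only close pair called towards the proximal site in both comparisons.

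Next after CF Im25 siRNA, among called rises with at least 100 reads in both libraries, came a unit on chromosome 14 (minus strand, 55615039 and 55614848, 191 nt apart). Its proximal site held 47.2% of 954 reads after CF Im25 siRNA, against 8.85% of 531 reads with scrambled siRNA, a difference of 38.3 points (34.2 to 42.1). With CF Im59 siRNA it had 21% and with no siRNA 12.8%. In the RNase I libraries the site was hardly used, at 5.52% of 344 reads after CF Im68 siRNA and 0.699% of 143 reads in the control.

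The other members named for a shift towards the proximal site after CF Im25 siRNA are the largest with at least 100 reads in both libraries; 7 close pairs in all, with or without that depth, shifted by 30 points or more. On chromosome 6 (plus strand, 126669754 and 126669949, 195 nt apart) the share was 91.3% after CF Im25 siRNA, against 63.7% with scrambled siRNA and 62.2% with no siRNA. On chromosome 3 (minus strand, 28365028 and 28364863, 165 nt apart) it was 90.5%, against 64.0% with scrambled siRNA and 75.7% with no siRNA. On chromosome 1 (minus strand, 241661087 and 241660906, 181 nt apart) it was 64.2%, against 38.5% with scrambled siRNA and 40.6% with no siRNA. The differences from scrambled siRNA were 27.6, 26.5 and 25.7 points. A further unit on chromosome 1 (minus strand, 150937753 and 150937663, 90 nt apart) had 72.4% after CF Im25 siRNA and 71.5% after CF Im59 siRNA, against 46.0% of 113 reads with scrambled siRNA. With no siRNA it had 66.4% of 834 reads, so there the scrambled library stood apart from the other 3 alkaline libraries. Of these 6 leading members, 5 had sites at least 158 nt apart.

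Only 3 members met the naming rule for a shift towards the distal site after CF Im25 siRNA. On chromosome 3 (plus strand, 128996559 and 128996615, 56 nt apart) the proximal share was 23.1% after CF Im25 siRNA, against 48.9% with scrambled siRNA and 43.3% with no siRNA, a difference of -25.8 points from scrambled. On chromosome 5 (minus strand, 134687272 and 134687234, 38 nt apart) it was 50.6%, against 75% with scrambled siRNA, a difference of -24.4 points. On chromosome 4 (minus strand, 2743568 and 2743392, 176 nt apart) it was 17.4%, against 39.5% with scrambled siRNA, a difference of -22.1 points. After CF Im59 siRNA the chromosome 4 unit stood at 18.1%, close to its share after CF Im25 siRNA.

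CF Im68 siRNA likewise shifted few close pairs. Of 701 tested against the scrambled RNase I library, 20 were called towards the proximal site (2.85%, 1.75% to 4.37%), against 21.4% of all units with 2 or more sites. Towards the distal site 7 were called (0.999%), against 1.63% of all units. The median change was 0.817 points over close pairs and 3.99 points over all such units. A change of at most 5 points was seen in 446 close pairs (63.6%), against 42.3% of all such units. In the wider classes 16.7% (200 to under 1000 nt) and 19.9% (1000 to 5000 nt) were called towards the proximal site.

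Among called rises with at least 100 reads in both libraries, the next largest after the chromosome 18 unit was on chromosome 1 (minus strand, 223967791 and 223967602, 189 nt apart). Its proximal share was 60.7% of 117 reads after CF Im68 siRNA, against 24.1% of 108 reads in the control, a difference of 36.6 points (23.9 to 47.6). All 4 alkaline libraries stood higher, at 75.6% after CF Im25 siRNA, 66.0% after CF Im59 siRNA, 68.4% with no siRNA and 67.6% with scrambled siRNA. The same held on chromosome 1 (plus strand, 100548793 and 100548917, 124 nt apart), with 67.1% after CF Im68 siRNA against 34.8% in the control, and 84.3% to 90.4% in the alkaline libraries. It held again on chromosome 5 (minus strand, 74017089 and 74017032, 57 nt apart), with 85.8% after CF Im68 siRNA against 56.9% in the control, and 87.5% to 93.8% in the alkaline libraries. In these 3 units the CF Im68 library lay between its own control and the alkaline libraries.

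Differently placed members completed that list. On chromosome 6 (minus strand, 150140074 and 150139934, 140 nt apart) the proximal share was 32.5% after CF Im68 siRNA, against 6.89% in the control (25.6 points). The alkaline libraries had 39.7% after CF Im25 siRNA, against 25.2% with scrambled siRNA, while CF Im59 siRNA stood at 8.05% and no siRNA at 13.9%. On chromosome 7 (plus strand, 42977356 and 42977431, 75 nt apart) the share was 42.9% after CF Im68 siRNA, against 15.7% in the control (27.2 points). The 4 alkaline libraries had 66 to 87 reads there and shares of 33.8% to 56.1%.

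The distal calls after CF Im68 siRNA with at least 100 reads in both libraries were 4, each with a proximal share that differed widely between the methods in at least 1 RNase I library. On chromosome 1 (minus strand, 212224827 and 212224793, 34 nt apart) the share was 31.1% of 1990 reads after CF Im68 siRNA, against 68.1% of 461 reads in the control, a difference of -37.1 points (-41.6 to -32.2). The alkaline libraries stood at 89.5% to 91.2%. On chromosome X (plus strand, 48463506 and 48463575, 69 nt apart) it was 47.6%, against 72.9% in the control, with 36.0% to 42.1% in the alkaline libraries. The chromosome 20 unit described above differed by -25 points between CF Im68 siRNA and its control. On chromosome 2 (plus strand, 171608354 and 171608547, 193 nt apart) the share was 59.4% after CF Im68 siRNA, against 83.2% in the control, while the alkaline libraries had 2.94% to 9.47%.

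**Figure D4:**
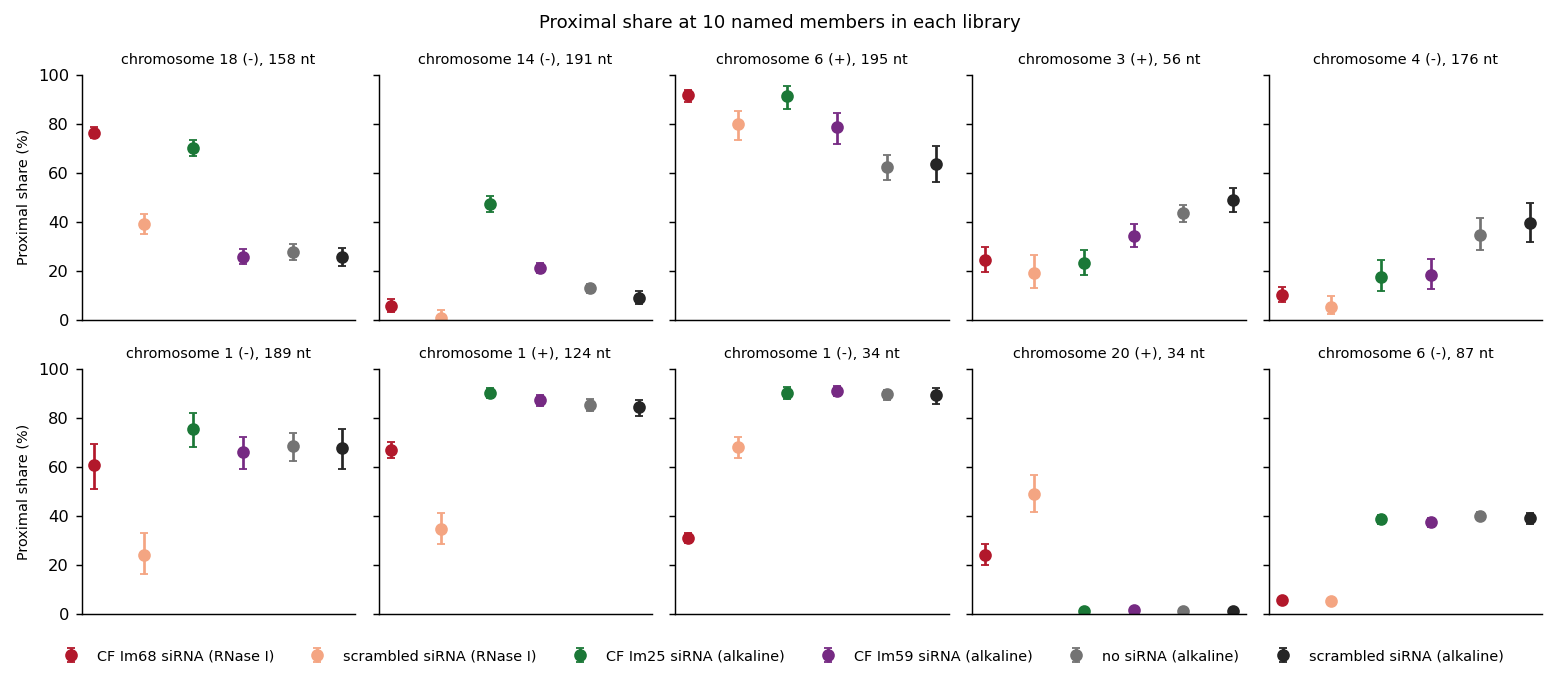
Proximal share of reads in % (vertical axis, with exact 95% binomial intervals, counting error only) at 10 named close pairs in the 6 libraries, each panel headed by chromosome, strand and spacing. The chromosome 18 unit has 76.2% and 70.02% after CF Im68 and CF Im25 siRNA and 25.5% to 39.1% in the other 4 libraries; the last panel has 5.65% and 5.53% in the RNase I libraries and 37.5% to 40.1% in the alkaline ones.

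CF Im59 siRNA gave no tilt towards the proximal site. Of 826 close pairs tested, 8 were called proximal (0.969%, 0.419% to 1.90%), against 2.20% of all units with 2 or more sites. Towards the distal site 15 were called (1.82%, 1.02% to 2.98%), against 4.25% of all units. The median change was -0.187 points against scrambled siRNA. Against untransfected cells it was 0.0925 points, with 8 proximal and 7 distal calls of 891, against 1.44% and 1.89% of all units. Of the calls against scrambled siRNA, 3 of 8 proximal and 3 of 15 distal ones passed against both controls. Such calls were not counted over all units here either.

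Only 3 proximal calls met the naming rule after CF Im59 siRNA. Beside the chromosome 1 unit 90 nt apart (25.5 points), a unit on chromosome 17 (minus strand, 40704581 and 40704457, 124 nt apart) had 45.3% after CF Im59 siRNA and 46.2% after CF Im25 siRNA, against 22.9% with no siRNA and 20.8% with scrambled siRNA. Another on chromosome 22 (plus strand, 40806108 and 40806289, 181 nt apart) had 63.6% after CF Im59 siRNA and 58.8% after CF Im25 siRNA, against 47.3% with no siRNA and 40.3% with scrambled siRNA. At both of these the 2 siRNA libraries lay above both alkaline controls.

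Most members named for a shift towards the distal site after CF Im59 siRNA lay closer to untransfected cells than to the scrambled control. They were picked for large falls from scrambled siRNA, with only the same direction asked against no siRNA. That choice favours such an order, so the order is a description only. On chromosome 11 (plus strand, 57429299 and 57429337, 38 nt apart) the proximal share was 50.7%, against 58.2% with no siRNA and 74.7% with scrambled siRNA. On chromosome 7 (plus strand, 97920769 and 97920837, 68 nt apart) it was 19.2%, against 32.7% with no siRNA and 42.5% with scrambled siRNA. On chromosome 21 (plus strand, 44195538 and 44195617, 79 nt apart) it was 31.1%, against 40.0% with no siRNA and 53.2% with scrambled siRNA. On chromosome 9 (plus strand, 34252438 and 34252521, 83 nt apart) it was 24.6%, against 31.0% with no siRNA and 44.8% with scrambled siRNA. In all 4 the scrambled library was the highest of the alkaline libraries and the no siRNA library came next. A unit on chromosome 15 (minus strand, 90171419 and 90171229, 190 nt apart) differed in this: it had 37.7% after CF Im59 siRNA and 42.6% after CF Im25 siRNA, against 71.9% with no siRNA and 61.2% with scrambled siRNA, and only 1.66% and 1.51% in the CF Im68 and scrambled RNase I libraries.

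Between the controls themselves, no siRNA against scrambled siRNA, 3 of 870 close pairs were called proximal (0.345%), against 1.07% of all units, and 5 distal (0.575%), against 2.18% of all units. The median change was -0.295 points, and 610 close pairs (70.1%) differed by at most 5 points, against 60.9% of all units with 2 or more sites. CF Im59 siRNA against the same scrambled control gave 547 (66.2%) within 5 points, against 54.3% of all such units. The control pair is the closest available measure of how far libraries of the same fragmentation method differed without a CF Im siRNA. No siRNA and the alkaline knockdowns were set against the same scrambled library.

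Proximal calls made up a larger percentage of the tested units at the wider spacings after CF Im25 and CF Im68 siRNA, a description over loci with no test. After CF Im25 siRNA, 3 of 312 close pairs 26 to under 50 nt apart were called proximal (0.962%, 0.199% to 2.78%). The numbers were 8 of 236 at 50 to under 100 nt (3.39%), 7 of 131 at 100 to under 150 nt (5.34%) and 13 of 131 at 150 to under 200 nt (9.92%, 5.39% to 16.4%). The median changes were -0.194, 1.37, 0.885 and 1.41 points from the closest to the widest class. After CF Im68 siRNA the percentages were 0.699%, 3.43%, 5.08% and 5.38% in the same order, and the medians 0.0950, 1.31, 2.95 and 1.81 points. CF Im59 siRNA gave 0.943%, 0.837%, 0.730% and 1.52%. Against untransfected cells the CF Im25 percentages were 2.71%, 3.54%, 8.33% and 7.75%, and the median at 26 to under 50 nt was 0.243 points, on the other side of 0.

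**Figure D5:**
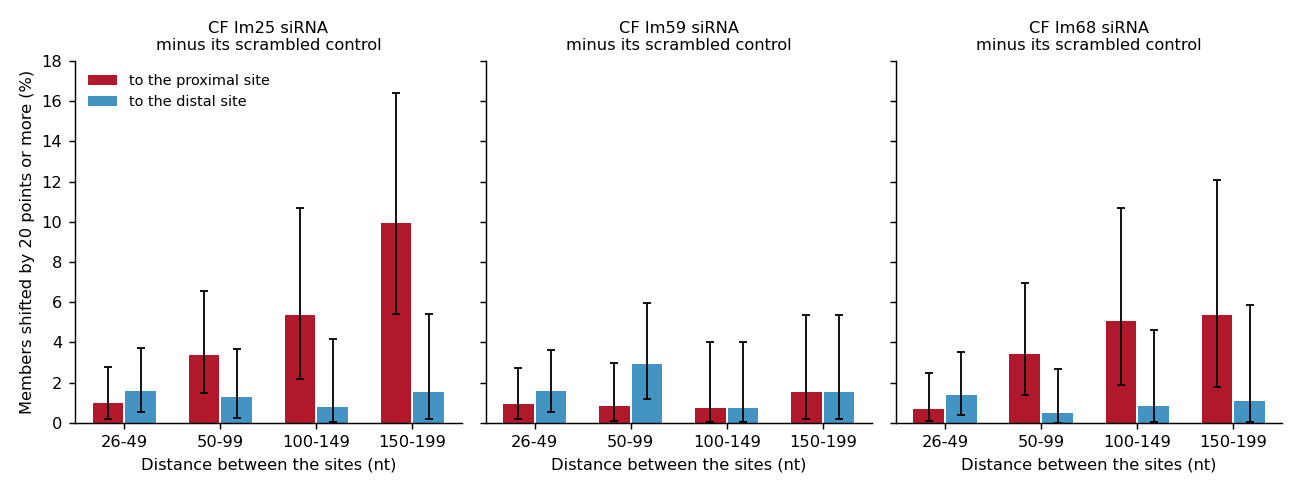
Percentage of tested close pairs called towards the proximal (red) or distal (blue) site, by distance between the sites in nt, for CF Im25, CF Im59 and CF Im68 siRNA, each against the scrambled control of its own fragmentation method; error bars are Clopper-Pearson 95% intervals over loci. Proximal calls after CF Im25 siRNA stand at 0.962% at 26 to under 50 nt and 9.92% at 150 to under 200 nt. The intervals of the 4 classes overlap throughout for CF Im59 siRNA and for CF Im68 siRNA.

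Room to change differed between the spacings too. The weaker site held a median of 17.4% at 26 to under 50 nt, 23.2% at 50 to under 100 nt, 23.5% at 100 to under 150 nt and 29.9% at 150 to under 200 nt, and median levels were 19.6, 16.9, 16.2 and 8.54 mean CPM. Among close pairs with a proximal share of 20% to 80% in the no siRNA library, which is outside the CF Im25 comparison, 27 of 244 were called proximal after CF Im25 siRNA (11.1%, 7.42% to 15.7%). The wider classes, restricted likewise, gave 20.8% (16.4% to 25.8%) and 21.6% (18.2% to 25.3%). By spacing the restricted close pairs gave 3 of 74 (4.05%), 8 of 75 (10.7%), 5 of 38 (13.2%) and 11 of 57 (19.3%). For CF Im68 siRNA, restricted by the scrambled alkaline library, 7 of 196 were called (3.57%, 1.45% to 7.22%), against 19.1% (14.3% to 24.8%) and 21.9% (17.7% to 26.6%). By spacing these were 0 of 62, 2 of 63, 2 of 38 and 3 of 33, where 0 of 62 has a Clopper-Pearson upper limit of 5.78%. Shares differed between the methods, so an alkaline share of 20% to 80% does not fix the share in the RNase I control. Room to change was therefore not made equal for CF Im68 siRNA. The restriction was chosen after the values were seen, the CF Im68 counts are small with overlapping intervals, and the part of the starting share in the trend with spacing was not tested.

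The CF Im25 and CF Im68 comparisons rest on separate libraries and controls. Over 612 close pairs tested in both, the changes correlated with a Pearson r of 0.23 and a Spearman rho of 0.22, given as a description across loci that come from the same 4 libraries. Of the CF Im25 proximal calls, 16 were tested after CF Im68 siRNA, and 13 of these lay above the control there (median 9.15 points), beside 62.9% of all 612. Of the CF Im68 proximal calls, 18 were tested after CF Im25 siRNA, and 13 of these lay above the control there (median 4.41 points), beside 54.4% of all 612. The chromosome 18 unit alone was called in both, 1 of the 16 and 1 of the 18. No close pair was called in opposite directions, or distal in both. Such joint calls were not counted over units outside the close pairs, and the number to be had by chance was not worked out. The joint calls therefore do not show whether close pairs differ from other units.

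Total reads of close pairs were summed over both sites and scaled to the reads in all units outside the mitochondrial genome. A change was called at a 2-fold ratio, at least 50 reads in 1 library and an exact interval that excluded 1. After CF Im25 siRNA 103 of 965 were higher (10.7%, all units 13.1%) and 90 lower (9.33%, all units 12.1%). After CF Im59 siRNA 73 of 953 were higher (7.66%, all units 8.61%) and 92 lower (9.65%, all units 11.1%). After CF Im68 siRNA 55 of 919 were higher (5.98%, all units 11.2%) and 58 lower (6.31%, all units 6.96%). No siRNA against scrambled siRNA gave 37 of 1021 higher (3.62%, all units 4.29%) and 26 lower (2.55%, all units 4.30%). TMM scaling moved all log2 ratios by 0.18 after CF Im68 siRNA, by 0.10 after CF Im59 siRNA, by 0.11 for no siRNA and by 0.01 after CF Im25 siRNA. The CF Im59 percentages became 9.34% higher and 7.66% lower with it, which turns their balance, the CF Im68 percentages became 8.60% higher and 4.03% lower, and those for no siRNA 5.0% higher and 1.96% lower.

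Totals of single members moved by more than 10-fold in places. A unit on chromosome 8 (plus strand, 86387421 and 86387601, 180 nt apart) had 117 CPM after CF Im25 siRNA and 215 CPM after CF Im59 siRNA, against 9.37 CPM with no siRNA and 7.72 CPM with scrambled siRNA. The ratios to scrambled siRNA were 15.2 (11.9 to 19.8) and 27.9 (21.9 to 36.1). In the RNase I libraries it had 2.83 CPM after CF Im68 siRNA, against 25.0 CPM in the control, a ratio of 0.113 (0.0737 to 0.170). Nearly all alkaline reads ended at its distal site, since the proximal share was 1.49% to 4.52% there. Another, on chromosome 3 (minus strand, 165490870 and 165490693, 177 nt apart), also stood high in both alkaline knockdowns, at 14.1 CPM after CF Im25 siRNA and 12.5 CPM after CF Im59 siRNA, against 0.242 CPM with no siRNA and 0.691 CPM with scrambled siRNA.

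Further members were named for higher totals after a single siRNA, though some were high in other knockdown libraries too. On chromosome 18 (plus strand, 43995489 and 43995548, 59 nt apart) the level was 11.8 CPM after CF Im25 siRNA, against 0.461 CPM with scrambled siRNA (4 reads), a ratio of 25.6 (9.72 to 95.5). On chromosome 6 (plus strand, 26374430 and 26374465, 35 nt apart) it was 9.02 CPM after CF Im59 siRNA and 8.37 CPM after CF Im25 siRNA. The controls there had 3.93 CPM with no siRNA and 1.38 CPM with scrambled siRNA (12 reads), and the CF Im59 ratio to scrambled siRNA was 6.52. For CF Im68 siRNA, a unit on chromosome 1 (plus strand, 168211960 and 168212088, 128 nt apart) had 16.4 CPM, against 0.640 CPM in the control (3 reads), a ratio of 25.7 (8.64 to 126). On chromosome 7 (plus strand, 24727305 and 24727498, 193 nt apart) the ratio was 10.6 (4.73 to 29.2). On chromosome 4 (plus strand, 123813648 and 123813724, 76 nt apart) it was 9.61 (6.27 to 15.5), from 494 reads after CF Im68 siRNA against 22 in the control.

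Other members had lower totals after a knockdown. After CF Im25 siRNA a unit on chromosome 1 (minus strand, 51577222 and 51577062, 160 nt apart) had 0.827 CPM, against 13.8 CPM with scrambled siRNA, a ratio of 0.0598 (0.0253 to 0.122). After CF Im59 siRNA it had 1.3 CPM, and with no siRNA it had 5.68 CPM. Units on chromosome 2 (plus strand, 204168424 and 204168598, 174 nt apart) and chromosome 1 (minus strand, 193060154 and 193059996, 158 nt apart) had ratios of 0.149 and 0.150 after CF Im25 siRNA. With no siRNA these units had 13.2 and 16.1 CPM, against 24.3 and 14.5 CPM with scrambled siRNA. After CF Im59 siRNA, units on chromosome 17 (minus strand, 45968636 and 45968598, 38 nt apart) and chromosome 12 (plus strand, 57851743 and 57851784, 41 nt apart) had ratios of 0.168 and 0.174. With no siRNA these had 11.5 and 21.9 CPM, against 19.1 and 44.9 CPM with scrambled siRNA. They were low after CF Im25 siRNA too, at 3.83 and 7.44 CPM. For CF Im68 siRNA, a unit on chromosome 11 (plus strand, 65193971 and 65193997, 26 nt apart) had 2.83 CPM, against 24.5 CPM in the control, a ratio of 0.115. Another on chromosome 8 (minus strand, 103216811 and 103216730, 81 nt apart) had 3.38 CPM, against 26.2 CPM in the control, a ratio of 0.129 (0.0866 to 0.187).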

How the data were processed

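A-seq read 3′ ends came from 6 HEK293 libraries, 1 per condition. The authors deposited raw counts per nucleotide position and strand, on hg19 (GRCh37) per the submitters' processing notes; the sources used here name no aligner or filter. From these counts, sites, units and close pairs were built by the rule given at the start of the report, and the proximal share, its change and its Newcombe interval were computed per unit. The members, lists and distance classes were chosen with earlier results of these data known. Named loci followed a rule: up to 6 largest called rises and falls per knockdown with at least 100 reads in both libraries and, for CF Im25 and CF Im59, the same direction against no siRNA; members called in both CF Im25 and CF Im68; the 4 highest levels; 3 rises and 3 falls in totals; edge cases; and the smallest change. The software was Python 3.11.15, numpy 2.4.6, pandas 2.3.3, scipy 1.17.1 and edgeR 4.0.16 (R 4.3.3, TMM factors only). The code was run on simulated data. That run does not show how well sites were told apart where windows overlapped or the weaker site held few reads. Depth was 5351980 to 18183644 reads. Alternatives varied read minimum, threshold, depth, window, site set, unit gap, control and scaling.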

Additional observations from a re-analysis of the deposited data

How the results depend on the processing

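No paired analysis was possible because each condition had 1 library. Alternatives gave 180 percentages and counts. Of these, 117 stayed within the interval over loci (counts within 1.5 times) of the value reported and 63 did not. That interval is a yardstick of size only, since loci are not replicates. The cause of a move was not tested unless the setting fixes it. Of 62 median changes under alternatives, 53 stayed within their interval. Percentages are given as proximal, then distal. With no minimum of reads they were 5.61% and 2.58% (CF Im25), 1.96% and 3.65% (CF Im59), 5.88% and 2.67% (CF Im68), 2.05% distal (no siRNA), and 20.4% and 15.8% (RNase I against alkaline). With 100 reads they were 2.5% and 0.499% (CF Im25), 0.154% distal (no siRNA) and 13.6% proximal (RNase I). At 10 points, which admits more, they were 13.1% and 5.93%, 4.96% and 7.02%, 11.3% and 4.56%, 2.64% and 5.06%, and 31.2% and 15.9% in the same order of comparisons. At 30 points they were 0.864% and 0.247%, 0.121% and 0.121%, 0.856% and 0.285%, 0.115% distal (no siRNA), and 11.5% and 9.13%. Thinning to the smallest library gave 0.647% distal (CF Im25) and 0.649% distal (CF Im59). Sites from 0.5 CPM gave 1.94% proximal (CF Im25), 0.406% proximal (CF Im59), 0 proximal (no siRNA) and 9.01% distal (RNase I). Sites from 2 CPM gave 21.4% and 16.2% (RNase I), and a weaker site of at least 5% gave 23.8% and 16.3% there. No siRNA as the control gave 0.786% distal (CF Im59). Units with a 20% to 80% share in an outside library, a setting chosen after seeing the data, gave 11.1% and 3.69% (CF Im25) and 3.20% and 6.00% (CF Im59). Total reads with TMM gave 7.66% lower (CF Im59), 8.60% higher and 4.03% lower (CF Im68) and 5.0% higher (no siRNA); the median of ratios gave 7.76%, 8.38%, 4.24% and 5.0%. For CF Im68, no minimum gave 10.2% lower and thinning 8.11% lower. Units called proximal after both CF Im25 and CF Im68 siRNA numbered 1 as reported, 13 with no minimum, 19 at 10 points, 2 with no siRNA as the control, with sites from the 3 control libraries or with a gap of 2000 nt, and 0 with sites from 0.5 CPM. In every setting run, both CF Im25 and CF Im68 siRNA gave proximal calls more often at 150 to under 200 nt than at 26 to under 50 nt. Depth limits the comparisons with the scrambled RNase I library most: it had 5351980 reads, and of 1123 close pairs 635 were tested in it against the alkaline library and 701 in CF Im68 siRNA against it.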
